A study of Mus musculus with 15 samples.

Results

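The response to the diet was compared between the liver and the lung of the same mice. The liver and lung count tables were joined by gene identifier, and only the 6 mice with a library of both tissues were used, CS01, CS02 and CS04 of the control diet (CS) group and PS04, PS09 and PS15 of the phytosterol diet (PS) group. These 12 libraries are 12 of the 15 in the series, and the livers of the remaining 3 mice (CS09, PS05 and PS11), which have no lung library here, were set aside and are given only as values. Both tables list the same 54532 genes. All mice were wild-type male C57BL/6J, an inbred laboratory strain, and the labels give an age of 28 weeks for every sample, a number that in the study's methods is the weeks of adaptation plus feeding. The CS group received a purified diet with soybean oil and lard, and the PS group the same diet with 2% phytosterols added, mainly β-sitosterol, campesterol and stigmasterol. Each library is 1 tissue of 1 mouse, so p-values measure the spread between mice of a diet.

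Phytosterols are plant sterols that resemble cholesterol and compete with it for absorption in the gut. Cells that lack sterols send the membrane-bound factor SREBP2 to the nucleus, where it raises the enzymes that build cholesterol and the receptor that takes it up, while INSIG proteins hold SREBP2 back when sterols are plentiful. The liver is the main site of this control, and the lung uses cholesterol and fatty acids for membranes and for surfactant, the film that type II cells of the alveoli secrete. Both tissues also run a circadian clock, in which BMAL1 (the product of Arntl) and CLOCK or NPAS2 drive the Per, Cry, Nr1d1, Nr1d2 and Dbp genes, and the products of these genes feed back on them through the day. The mice lived on a light/dark cycle, and the time of day at which tissues were taken is not given in the sources used here.

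Total counts ranged from 14410117 to 17346079 in the 6 livers and from 17934930 to 19396057 in the 6 lungs. The 10 hepatocyte markers summed to between 91667 and 132940 CPM (counts scaled to the same library total) in the livers and to at most 128 in the lungs, and the 7 markers of alveolar type II cells to between 20789 and 35614 CPM in the lungs and at most 8.11 in the livers, so each library held the tissue on its label. The liver of CS02 stood apart. Its log2 CPM correlated with the other CS livers at a mean r of 0.875, against 0.924 to 0.964 for the 5 other livers with theirs. Genes of the mitochondrial genome took 14.4% of its counts, against 3.33 and 4.13% in CS01 and CS04 and 13.3, 9.79 and 6.50% in PS04, PS09 and PS15. The lungs of the CS mice held 2.94 to 3.51% and those of PS04, PS09 and PS15 held 6.13, 7.28 and 3.69%. Counts of genes are therefore given with and without mouse CS02 below.

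Within each tissue the diets were compared on the counts with edgeR's quasi-likelihood test. A difference is the mean log2 CPM of the 3 PS mice minus that of the 3 CS mice, with its standard error (SE), and a gene is said to have risen or fallen where its unadjusted edgeR p was at most 0.05. A total of 12328 genes passed the filter on low counts in both tissues. Among them 396 rose in the liver (3.21%), 389 fell in the liver (3.16%), 2085 rose in the lung (16.9%) and 1855 fell in the lung (15%). In the liver no gene passed the Benjamini-Hochberg adjustment in edgeR (smallest adjusted p = 0.332, 867 of 13125 genes at an unadjusted p of at most 0.05), while DESeq2's Wald test passed 120. In the lung 792 genes were higher and 738 lower after adjustment, of 16717 tested.

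Of the 12328 genes, 165 moved the same way in both tissues (1.34%), 72 up and 93 down. Opposite movement was seen in 36 genes (0.292%), of which 20 rose in the liver and fell in the lung and 16 fell in the liver and rose in the lung. A gene was assigned to 1 tissue only where the difference between the tissues itself had an unadjusted p of at most 0.05, which 1158 genes did (9.39%). On this rule 284 genes moved in the liver (2.3%), 149 up and 135 down, and 558 in the lung (4.53%), 339 up and 219 down. A further 300 genes moved in the liver and 3181 in the lung without a difference between tissues at that threshold, and 7804 moved in neither. After adjustment no gene differed between the tissues in edgeR (smallest adjusted p = 0.103), whereas DESeq2 gave 134.

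The counts are read against what each tissue showed over all genes. Of the 396 genes that rose in the liver, 18.2% also rose in the lung, where 16.9% of all genes rose, and 5.05% fell, where 15% of all genes fell. Of the 389 genes that fell in the liver, 23.9% fell in the lung and 4.11% rose. Of the genes that rose in the lung 3.45% rose in the liver, and of those that fell in the lung 5.01% fell there, against 3.21% and 3.16% of all genes. The share of rising genes that rose in both tissues was thus near the background, that of falling genes above it, and the opposite shares below it. Without mouse CS02 14.3% of 12680 genes rose and 12.9% fell in the liver, and 11% rose and 11.8% fell in the lung. Of the 1814 genes that rose in the liver then, 33.5% rose in the lung and 1.1% fell, and of the 1633 that fell, 37.7% fell in the lung and 0.857% rose. Without CS04 the shares were 10.4% of the rising genes, where 13.9% of all genes rose in the lung, and 9.67% of the falling genes, where 9.99% of all fell, so neither lay above the background. Without PS15 they were 31.9% of the rising genes against 17.6% of all, and 39.9% of the falling genes against 17.9%. By sign alone, 30.7% of the 12328 genes were higher with PS in both tissues, 29.7% lower in both, 19.8% higher in liver and lower in lung and 19.7% the reverse, and the tissues share their mice, so these shares do not come from separate animals. Without any test, the 3 PS mice lay wholly above or wholly below the 3 CS mice in both tissues for 355 genes in the same direction (2.88%) and for 161 in opposite directions (1.31%).

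**Figure D1:**
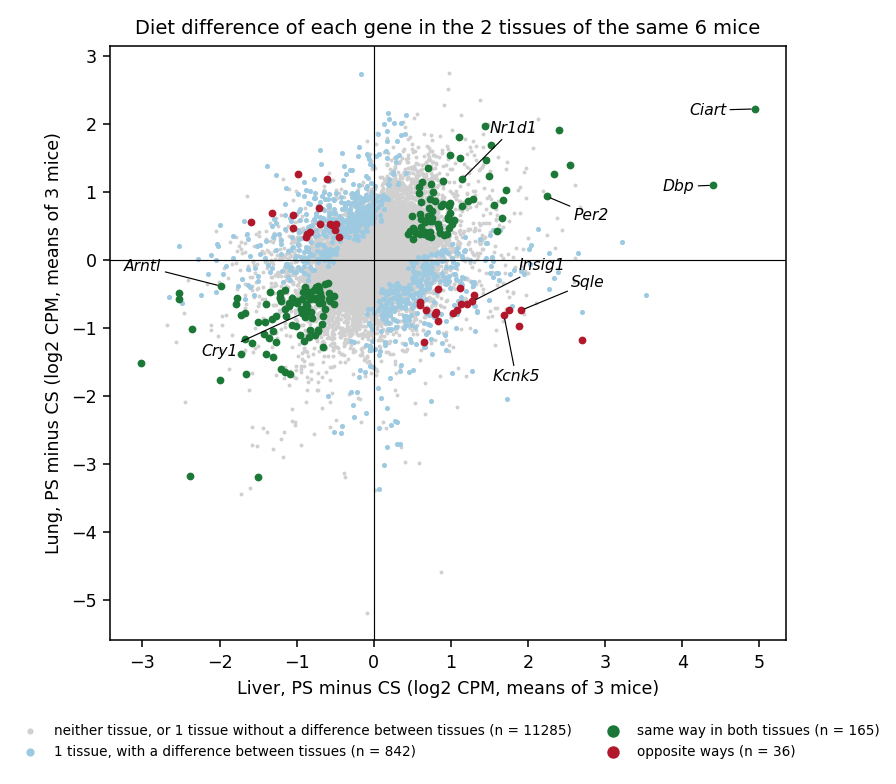
Each point is 1 of the 12328 genes tested in both tissues. The x axis is PS minus CS in the liver and the y axis PS minus CS in the lung, both as log2 CPM from means of 3 mice, and colour gives the class, 165 genes moving the same way and 36 in opposite ways. Ciart and Dbp lie farthest to the right among the genes that rose in both tissues, and Sqle and Insig1 lie in the quadrant that is higher in liver and lower in lung.

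The size of these classes depended on single mice. Without its 2 libraries 1222 genes moved the same way and 34 in opposite ways, and 110 of the 165 and 19 of the 36 genes stayed in their class. Leaving out CS01, CS04, PS04 or PS09 gave 54, 59, 74 and 45 genes moving the same way and leaving out PS15 gave 265, while the opposite class ranged from 13 without PS09 to 45 without PS04. The test of the mean diet effect over both tissues, taken as 1 value per mouse, gave 2133 genes at an unadjusted p of at most 0.05 (17.3%) and no gene after adjustment (limma, smallest adjusted p = 0.228), but 1859 after adjustment without CS02.

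Clock genes were among the genes that moved the same way. Of the 12 core clock genes, all tested in both tissues, Per2, Nr1d1 and Nr1d2 rose and Arntl and Cry1 fell in both tissues, and Npas2 fell in the liver with a difference between tissues. Of the 15 clock output genes Ciart, Dbp and Tsc22d3 rose and Nfil3 fell in both. The class thus held 5 of the 12 core genes and 4 of the 15 output genes, and 1.34% of all genes. Without CS02 it held 6 and 5 genes of these lists, then 5 and 3 without CS01, 5 and 2 without PS15, 3 and 2 without PS04, and 2 and 2, all of them rising, without CS04 or PS09. The share of all genes in the class was 9.64% without CS02, 0.425% without CS01, 2.07% without PS15, 0.58% without PS04, 0.462% without CS04 and 0.354% without PS09. The lung call of Arntl was lost in 9 of 16 alternatives (other scalings, filters, tests and sets of mice), the liver call of Nfil3 in 6, that of Tsc22d3 in 5 and that of Per2 in 4, all with the same direction. The lists were chosen with earlier results of these data known, so the count describes the genes and supports nothing else.

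Ciart encodes a repressor that binds the BMAL1 and CLOCK complex and is itself one of its strongest targets. It lies at chr3:95878503-95882251 on the minus strand of GRCm38. Its liver level was 0.165, 2.79 and 0.0573 CPM in CS01, CS02 and CS04 and 19.7, 19.04 and 11.8 in PS04, PS09 and PS15. In the lung it was 5.46, 3.598 and 4.94 CPM in the CS mice and 7.34, 28.1 and 50.8 in the PS mice. No PS library reached down to the CS range in either tissue, PS04 was the highest of the livers and the lowest of the PS lungs, and the differences were 4.94 (SE 1.26) in liver and 2.23 (SE 0.84) in lung (edgeR adjusted p = 0.601 and 0.0452). The difference between tissues did not pass (edgeR adjusted p = 0.712).

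Dbp, a transcription factor of the PAR bZIP family whose level swings widely over the day, measured 0.825, 26.9 and 4.36 CPM in the CS livers and 108, 90.8 and 110.4 in the PS livers. In the lung it measured 1.92, 1.799 and 2.71 CPM with CS and 2.96, 5.41 and 6.29 with PS. The groups did not overlap in either tissue, CS02 was by far the highest CS liver, and the liver difference of 4.402 (SE 1.399) stood beside 1.104 (SE 0.37) in lung. Its exons overlap those of Sphk2 on the other strand over 539 bases, and because the kit does not mark strand, reads there cannot be assigned to either gene.

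Per2, a repressor of the clock, read 3.52, 26.4 and 7.57 CPM in the CS livers and 55.96, 50.4 and 27.6 in the PS livers, and 16.4, 22.4 and 19.7 in the CS lungs and 23.1, 41.8 and 53.4 in the PS lungs, without overlap in either tissue. The liver gap was narrow, since CS02 lay just under PS15. Nr1d1, which encodes the repressor REV-ERBα, was flat among the CS livers at 40.5, 41.5 and 37.9 CPM and stood at 88.9, 72.6 and 108 in the PS livers, while the lungs gave 16.8, 20.9 and 18.6 with CS and 24.9, 52.9 and 59.8 with PS. Its difference was nearly equal in both tissues, 1.15 (SE 0.17) and 1.19 (SE 0.41), with an edgeR adjusted p = 0.554 in liver and 0.0371 in lung. Exons of Nr1d1 and Thra overlap on opposite strands over 263 bases.

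Nr1d2, the close relative of Nr1d1, rose by 0.98 (SE 0.23) in liver and 0.79 (SE 0.13) in lung. Tsc22d3, a glucocorticoid-induced gene also known as Gilz, rose by 1.67 (SE 0.77) and 0.89 (SE 0.29). Per1 and Per3 were also higher in both tissues, Per1 by 1.496 in liver and 0.94 in lung and Per3 by 2.68 and 0.79, but only the lung differences passed at an unadjusted p of at most 0.05. For both of them CS02 carried the highest CS liver level, 5.5004, 40.1 and 12.4 CPM in CS01, CS02 and CS04 for Per1 and 0.7701, 12.9 and 1.89 for Per3, beside PS ranges of 30.8 to 49.03 and 12.9 to 23.9. CS02 lay inside the PS range for Per1 and at its lower end for Per3.

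Among the listed clock genes, Arntl, Cry1 and Nfil3 fell in both tissues. Arntl, the gene of BMAL1, read 21.3, 14.1 and 22.9 CPM in the CS livers and 4.03, 4.98 and 5.29 in the PS livers, and 29.9, 36.8 and 40.8 in the CS lungs and 26.2, 24.95 and 30.9 in the PS lungs. The livers were far apart and the lungs overlapped, since PS15 lay above CS01. The difference was -1.98 (SE 0.25) in liver and -0.38 (SE 0.16) in lung, and the difference between tissues passed before adjustment and not after it (edgeR adjusted p = 0.214). Npas2, the partner of BMAL1 that can replace CLOCK, fell with a difference of -2.14 (SE 0.45) in liver and stood at -0.201 (SE 0.11) in lung, which did not pass.

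Cry1, a repressor that peaks late in the cycle, read 13.04, 8.11 and 18.3 CPM in the CS livers, 7.05, 5.38 and 7.19 in the PS livers, 43.5, 33.05 and 37.5 in the CS lungs and 25.3, 20.8 and 19.9 in the PS lungs, and no PS library reached the CS range. It fell with a difference of -0.93 (SE 0.36) and -0.78 (SE 0.16). Nfil3, a repressor that shares binding sites with DBP, fell with a difference of -0.86 (SE 0.58) in liver, where CS01 stood out at 109, 27.3 and 58.03 CPM in CS01, CS02 and CS04, and with one of -0.76 (SE 0.196) in lung. In the liver CS02 lay below the PS mice, which were tightly grouped at 29.1 to 31.7 CPM, and in the lung the groups did not overlap.

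Some output genes were not shared. Bhlhe40, a repressor of E-box genes, rose by 1.91 (SE 0.32) in liver and stood at -0.16 (SE 0.28) in lung (difference between tissues, edgeR adjusted p = 0.214). Hlf and Coq10b also rose in the liver with a difference between tissues, and Wee1, a kinase that delays mitosis, rose by 1.21 (SE 0.404) in liver and fell with a difference of -0.64 (SE 0.08) in lung. Over the 12 core genes the median difference was 0.49 in liver and -0.06 in lung, and over the 15 output genes 1.21 and 0.01, beside medians of 0.0049 and 0.0043 over all 12328 genes. The medians near 0 in lung come with genes moving both ways, 5 core genes up and 4 down at an unadjusted p of at most 0.05.

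**Figure D2:**
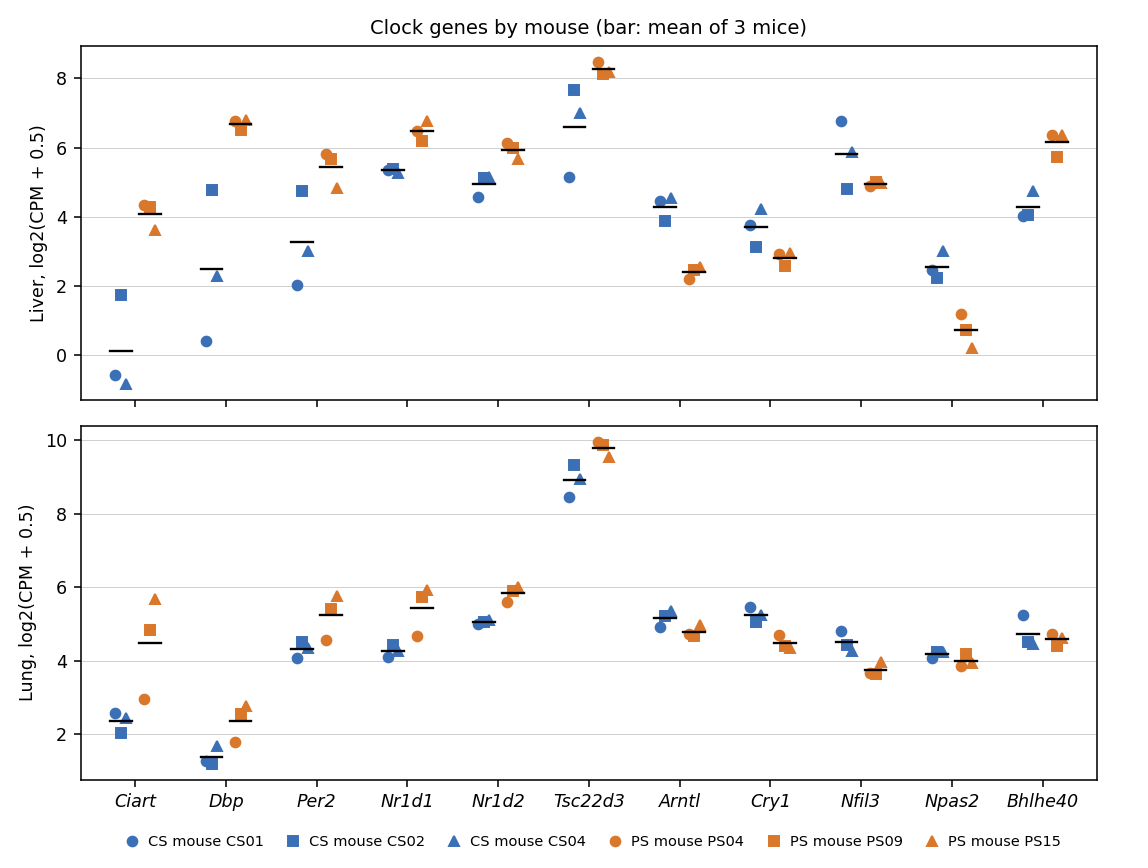
Levels of 11 clock genes in the livers (top) and lungs (bottom) of the 6 mice, as log2(CPM + 0.5), with the CS mice in blue, the PS mice in orange and a bar for the mean of 3 mice. From Ciart to Tsc22d3 the PS mice lie higher in both tissues, from Arntl to Nfil3 the PS mean is lower in both, and Npas2 and Bhlhe40 separate in the liver.

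The CACGTG E-box is the element that BMAL1 binds. Over the 250 bases before the annotated start, 10.2% of the 9260 tested genes with a RefSeq promoter window hold it on either strand (the letters read the same on both), against 6 of the 13 clock output genes and 2 of the 10 core clock genes with a window. The D-box TTANGTAA, to which DBP and NFIL3 bind, is in 1.63% of all windows and in 1 gene of each clock list. The windows of Ciart and Cry1 are shown because both genes moved the same way in both tissues, one up and one down, and both hold E-boxes, in capitals. They are RefSeq sequences on GRCm38.p6, minus strand, read 5′ to 3′ and ended before the first annotated exon base, chr3:95882252-95882478 and chr10:85185065-85185304.
Ciart: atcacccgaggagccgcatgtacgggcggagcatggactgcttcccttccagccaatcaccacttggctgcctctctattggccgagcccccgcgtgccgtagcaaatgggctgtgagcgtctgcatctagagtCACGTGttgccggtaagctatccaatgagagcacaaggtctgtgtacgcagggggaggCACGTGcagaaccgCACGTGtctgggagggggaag
Cry1: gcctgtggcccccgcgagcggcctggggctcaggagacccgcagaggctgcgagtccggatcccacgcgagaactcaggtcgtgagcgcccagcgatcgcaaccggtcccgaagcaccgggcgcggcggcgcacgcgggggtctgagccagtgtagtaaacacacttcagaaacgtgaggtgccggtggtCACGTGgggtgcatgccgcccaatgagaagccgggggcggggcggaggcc
Ciart holds 3 E-boxes and Cry1 holds 1, and a match of letters is a description of the window only. Among the 72 genes that rose in both tissues 3 of the 44 with a window held an E-box, and among the 93 that fell 13 of 69.

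In the livers of the 3 mice without a lung library, which the classes did not use, the clock genes given here differed in the same directions. Ciart read 0.255 CPM in CS09 and 5.096 and 4.198 in PS05 and PS11, Dbp read 2.296 against 28.3 and 37.8, and Arntl read 15.6 against 9.63 and 6.997. Both PS livers lay beyond the CS liver in each case. The log2 differences between PS05 and PS11 on average and CS09 were 2.19 for Per2, 1.95 for Nr1d1, 0.43 for Nr1d2, -0.38 for Cry1 and -0.72 for Nfil3, with 1 CS liver and so no test.

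Outside the clock, the rule for named genes gave Map3k6, Ighg2c, Pnisr and Mterf1a among the genes that rose in both tissues. Map3k6, a stress-activated kinase, read 1.595, 2.38 and 1.32 CPM in the CS livers and 3.88, 3.13 and 4.64 in the PS livers, and 21.7, 89.2 and 52.9 in the CS lungs and 99.1, 194 and 235 in the PS lungs. The groups were apart in both tissues and the rises were 1.104 (SE 0.28) and 1.82 (SE 0.703). Ighg2c, an immunoglobulin heavy chain constant gene made by plasma cells, read 621, 199 and 831 CPM in the CS lungs and 1179.7, 1616 and 1349 in the PS lungs, with rises of 1.55 (SE 0.64) there and 0.99 (SE 0.35) in liver. The 10 B cell and plasma cell markers summed to 3755 to 6745 CPM in the CS lungs and 8749 to 14006 in the PS lungs, and to 57.7 to 465 and 88.8 to 151 in the livers, and their part in this result was not tested. In bulk tissue fewer or more cells of a type and less or more RNA per cell cannot be told apart.

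Pnisr, a nuclear speckle gene, rose by 0.89 (SE 0.23) in liver and 1.16 (SE 0.45) in lung. Mterf1a, which shares 1316 bases at 98.6% identity with Mterf1b and so may exchange counts with it, rose by 1.29 (SE 0.48) and 0.91 (SE 0.16), with a liver call that was lost in 6 of 15 alternatives. The remaining genes of the class included 10 processed pseudogenes, copies of spliced transcripts whose reads can come from the parent gene. Processed pseudogenes are 13.9% of the 72 genes and 2.83% of all 12328.

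The genes that rose in both tissues were short. Their median exon length was 2544 bases, against 5115 for the genes that fell in both and 4269 over all genes. With all 12328 genes ordered by length in 10 equal bins, the bin of the shortest genes (59 to 1479 bases) had a median difference of 0.30 in liver and 0.19 in lung, and the bin of the longest -0.07 and -0.12. In the livers of the mice without a lung library these bins went the other way, at -0.35 and 0.20. The part of gene length in the shared class was not tested beyond the following correction. Once each library's trend with gene length was removed (an alternative added after seeing the data), 160 genes moved the same way, 123 of them as before, and the 70 that rose had a median length of 4188 bases and 1 processed pseudogene. The clock genes that rose in both tissues measured from 2261 bases for Ciart to 5856 for Per2, and after the correction Per2, Nr1d1, Nr1d2, Ciart, Dbp and Tsc22d3 rose and Cry1 and Nfil3 fell in both tissues, while the lung call of Arntl was lost.

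With all mice, some genes of fat use were among those that fell in both tissues. Pdk4, the kinase that shuts pyruvate out of the mitochondrion and so favours fat as fuel, read 68.97, 8.93 and 39.4 CPM in the CS livers and 4.34, 4.804 and 5.75 in the PS livers, and 49.1, 66.5 and 60.4 in the CS lungs and 49.5, 34.9 and 41.99 in the PS lungs. The livers did not overlap and the lungs did, with PS04 above CS01. Pdk4 fell with a difference of -2.53 (SE 0.88) in liver and -0.48 (SE 0.19) in lung, and the test of the difference passed only before adjustment (edgeR adjusted p = 0.381).

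Acot1, a thioesterase that releases fatty acids from coenzyme A, read 570.3, 38.4 and 275 CPM in the CS livers, 30.4, 58.5 and 93.8 in the PS livers, 186, 169 and 193 in the CS lungs and 68.5, 40.02 and 126 in the PS lungs. The lungs did not overlap, and the liver of CS02 lay inside the PS range. It shares 826 bases at 95.8% identity with Acot2, which fell in the liver with a difference of -1.42 (SE 0.54) and stood at 0.02 (SE 0.18) in lung. Acsl1, which activates long-chain fatty acids, fell with a difference of -0.73 (SE 0.37) and -1.02 (SE 0.29), and Ehhadh, a peroxisomal enzyme of fatty acid oxidation, with differences of -1.78 (SE 1.25) and -0.56 (SE 0.12). The CS02 liver was in the PS range for both.

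All of these are known targets of the nuclear receptor PPARα. Of the 15 genes of that list tested in both tissues, 5 fell and 1 rose in the liver, against 3.16% and 3.21% of all genes, and 7 fell and 1 rose in the lung, against 15% and 16.9%, with medians of -0.57 and -0.48. Ppara itself read 2.43, 2.26 and 2.82 CPM in the CS lungs and 0.414, 0.502 and 0.938 in the PS lungs, a difference of -1.91 (SE 0.32) (edgeR adjusted p = 0.0311), and 55.2, 18.3 and 103 in the CS livers and 24.3, 21.6 and 32.3 in the PS livers, where CS02 was below every PS mouse. Without CS02 Ppara fell in both tissues, whereas Pdk4 and Ehhadh lost their lung calls. The liver falls of the list numbered 8 without CS02, 3 without CS01, CS04, PS09 or PS15 and 2 without PS04. Over all genes 12.9% fell in the liver without CS02, 3.06% without PS15 and 2.11% without CS04. The share was 1.45% without PS04, 1.18% without PS09 and 1.1% without CS01. Of Pdk4, Acot1, Acsl1 and Ehhadh, none fell in both tissues without CS04 or PS09, Pdk4 alone did without CS01 or PS04, and without PS15 all did except Acsl1. Of the 23 tested enzymes of fatty acid oxidation 13 fell and 1 rose in the lung and 2 fell in the liver, Cpt2 and Ehhadh, against 15% of all genes falling in the lung and 3.16% in the liver. The lung falls ranged from 8 without CS04, where 9.99% of all genes fell in the lung, to 14 without PS04 or PS15, where 17% and 17.9% did. Without CS02 11 of them fell and 1 rose in the liver, against 12.9% and 14.3% of all genes, and 7 of those fell in both tissues, whereas without CS01, PS04 or PS09 none moved in the liver. Of all 12680 genes tested without CS02 615 fell in both tissues. In the settings where none of the enzymes moved in the liver, 1.1 to 1.45% of all genes fell and 1.48 to 1.8% rose there. The medians were -0.45 in lung and -0.23 in liver, and with all mice 1 of the 23, Etfa, differed between the tissues at an unadjusted p of at most 0.05. Acadvl, the first enzyme of the oxidation of very long chains, fell with a difference of -1.74 (SE 0.395) in lung (edgeR adjusted p = 0.0257) and stood at -1.16 (SE 1.22) in liver, which did not pass, and it shares 1151 exon bases with Dvl2 on the other strand. Fat cell markers varied widely among the lungs. The 9 markers summed to 44.3 to 204 CPM in the CS lungs with a median of 166, and to 28.4 to 156 in the PS lungs with a median of 31.95. None of the 8 tested in the lung passed, and Adipoq, which defines fat cells, read 13.6, 19.4 and 2.01 CPM in the CS lungs and 12.8 in PS04 and was not counted in PS09 and PS15. The 10 heart muscle markers summed to 222 to 341 CPM in the CS lungs and 47.1 to 619 in the PS lungs. The 8 skeletal muscle markers summed to 5.41 to 446 CPM in the CS lungs and 6.25 to 10.7 in the PS lungs. The part of fat and muscle cells in the lung values of fatty acid oxidation, fatty acid synthesis and PPARα genes was not tested.

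The rule for named genes further gave, among the genes that fell in both tissues, Slc25a25, Tmcc3, Gpatch2l, Sgtb, Plekho2, Faf1 and Gucy1b1. Slc25a25, a mitochondrial carrier of ATP and magnesium, read 419, 159 and 337 CPM in the CS livers and 116, 128 and 96.7 in the PS livers and fell with a difference of -1.32 (SE 0.44) in liver and -0.87 (SE 0.39) in lung. Tmcc3, a membrane protein of the endoplasmic reticulum, fell with a difference of -1.504 (SE 0.396) and -0.91 (SE 0.28), and Faf1, an adaptor of protein degradation, with differences of -0.802 (SE 0.18) and -0.85 (SE 0.19). Gucy1b1, a subunit of the nitric oxide receptor, fell with a difference of -0.93 (SE 0.299) and -0.77 (SE 0.27). Its liver call was lost in 6 of 16 alternatives and that of Plekho2 in 5 of 15. For Gpatch2l, Sgtb and Plekho2 the differences ranged from -0.82 in the lung for Plekho2 to -1.67 in the lung for Sgtb. Abcb4, which exports phospholipid into bile, fell in both tissues too, with differences of -0.65 (SE 0.19) in liver and -1.28 (SE 0.31) in lung, but its lung level was at most 1.57 CPM.

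The 20 genes that rose in the liver and fell in the lung included sterol genes. They held 3 of the 20 enzymes of cholesterol synthesis, with Insig1 and Aacs, while the class holds 0.162% of all genes. Sqle, the squalene epoxidase at chr15:59315077-59331192, read 10.5, 4.57 and 12.2 CPM in the CS livers and 33.3, 24.9 and 38.4 in the PS livers. In the lungs it read 38.2, 35.9 and 44.7 in the CS mice and 32.8, 21.3 and 18.9 in the PS mice. The groups were separate in both tissues and in opposite order, with differences of 1.91 (SE 0.47) and -0.74 (SE 0.26), and the test of the difference gave an edgeR adjusted p = 0.214.

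Insig1, the sterol-regulated protein that retains SREBP2 and is itself raised by it, read 53.3, 58.5 and 82.2 CPM in the CS livers, 161, 133 and 171 in the PS livers, 73.6, 61.5 and 68.8 in the CS lungs and 50.2, 38.3 and 45.9 in the PS lungs. Neither tissue overlapped. It rose by 1.28 (SE 0.22) and fell with a difference of -0.605 (SE 0.14), and shared with Msmo1 and others the smallest adjusted p of the difference between tissues (edgeR adjusted p = 0.103). Hmgcs1, the synthase of the pathway's first committed building block, read 63.4, 135 and 74.95 CPM in the CS livers and 258, 206 and 124 in the PS livers, where PS15 lay just under CS02, and 109, 82.2 and 77.6 in the CS lungs and 68.05, 69.6 and 62.1 in the PS lungs, which did not overlap. It rose by 1.12 (SE 0.45) and fell with a difference of -0.41 (SE 0.16), and its liver call was lost in 4 of 16 alternatives and its lung call in 3. Aacs, which activates acetoacetate for lipid synthesis, rose by 1.75 (SE 0.72) and fell with a difference of -0.74 (SE 0.23).

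Most of the pathway moved in the liver. Of the 20 cholesterol synthesis enzymes, all tested in both tissues, 13 rose and none fell in the liver, where 3.21% of all genes rose and 3.16% fell, and 7 fell and 1 rose in the lung, where 15% fell and 16.9% rose. Without CS02 the same 13 rose, with 14.3% of all genes rising, and 2 fell in the liver, with 12.9% of all genes falling, both of which fell in the lung as well. The median difference was 0.93 in liver and -0.33 in lung, and 15 of the 20 differed between tissues at an unadjusted p of at most 0.05, against 9.39% of all genes. A further 9 enzymes rose in the liver with a difference between tissues. Msmo1, the sterol C4-methyl oxidase, had the smallest p of them, at 16.01, 14.3 and 29.5 CPM in the CS livers and 84.2, 96.96 and 94.7 in the PS livers. The lungs gave 42.8, 32.5 and 39.8 with CS and 34.1, 30.5 and 22.1 CPM with PS and overlapped. Msmo1 rose by 2.27 (SE 0.33) in liver and stood at -0.42 (SE 0.22) in lung. Lss, Cyp51, Nsdhl, Mvk, Mvd, Fdft1, Fdps and Acat2 were the others, with liver rises from 0.67 for Acat2 to 2.33 for Fdps, which was counted at no more than 1.79 CPM in any of the 12 libraries. Exons of Fdps overlap those of Gm43738 on the same strand over 1124 bases, and Gm43738 gathered 0 counts. Acat2 shares 1477 bases at 97.7% identity with Acat3, which may exchange counts with it. Stard4, a sterol carrier raised by SREBP2, rose in the liver as well, with a difference of 1.2005 (SE 0.42), and stood at -0.45 (SE 0.28) in lung.

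Idi1, Sc5d and Tm7sf2 moved in the lung with a difference between tissues. Idi1, the isomerase that makes the active isoprene unit, read 26.4, 15.6 and 19.4 CPM in the CS lungs and 2.78, 1.95 and 4.86 in the PS lungs, a difference of -2.6996 (SE 0.43) (edgeR adjusted p = 0.0153). In the livers it read 3.41, 0.545 and 6.31 in CS01, CS02 and CS04 and 2.02, 1.85 and 6.66 in the PS mice, a difference of 0.305 (SE 1.13) with the groups interleaved. Idi1 shares 684 bases with Gm13502, which gathered 56 counts in all, and 681 at 97.7% identity with Gm35570, which gathered 145. Sc5d, a late desaturase of the pathway, fell with a difference of -0.67 (SE 0.09) in lung and stood at 0.09 (SE 0.19) in liver. Tm7sf2, a sterol reductase, was the 1 enzyme of the list that rose in the lung, where 6 of the 20 had a higher mean with PS, and it rose by 1.28 (SE 0.37) (edgeR adjusted p = 0.0369).

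**Figure D3:**
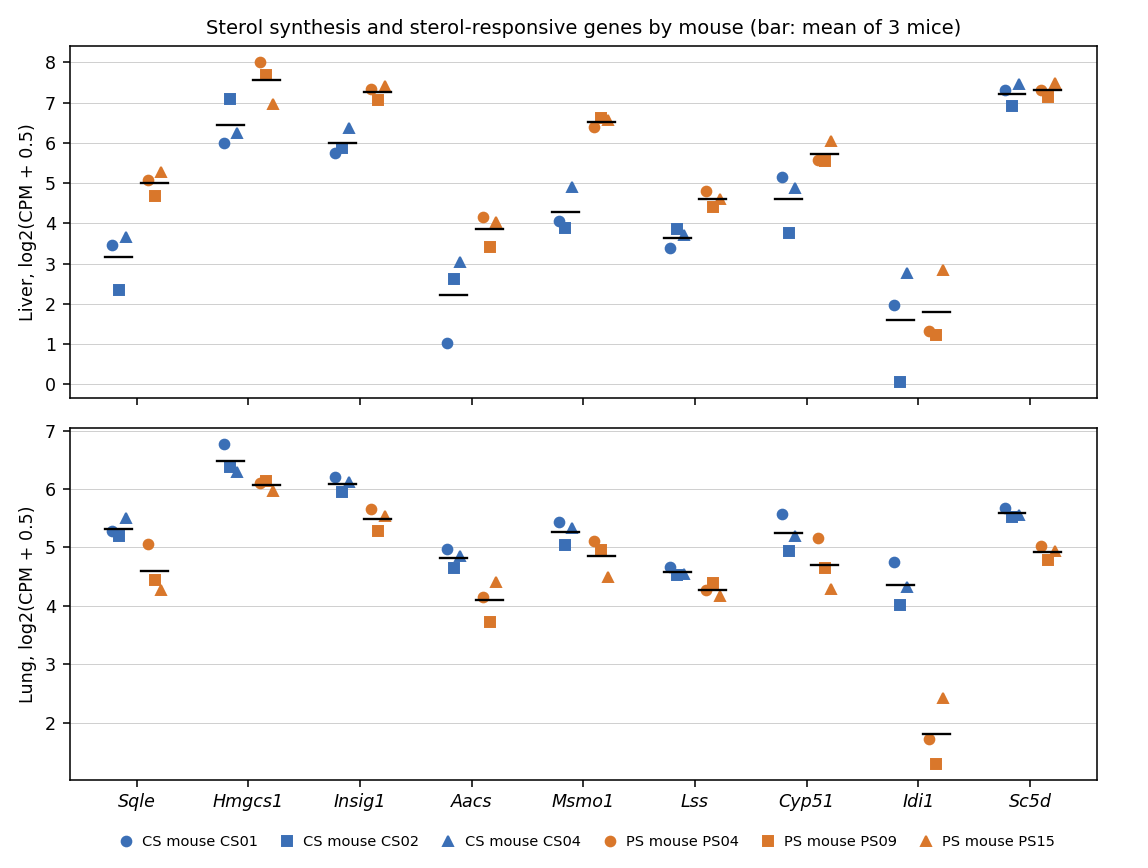
Levels of 9 sterol genes in the livers (top) and lungs (bottom) of the 6 mice as log2(CPM + 0.5), CS in blue, PS in orange, with a bar for the mean of 3 mice. From Sqle to Cyp51 the PS mean lies above the CS mean in the liver and below it in the lung, and Idi1 and Sc5d separate in the lung only.

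The sterol response element TCACNCCAC, the site of SREBP2, was found on either strand in 1.27% of the 9260 promoter windows and in 1 of the 15 cholesterol synthesis enzymes with a window, Hmgcs1. Among the genes that rose in the liver and fell in the lung 1 of 13 held it. The window of Hmgcs1 is shown with this element in capitals, and that of Insig1, whose adjusted p of the difference was among the smallest, with its 1 E-box in capitals. Both are RefSeq sequences on GRCm38.p6, plus strand, 5′ to 3′, chr13:119690101-119690350 and chr5:28071162-28071362, the latter ended before the first annotated exon base.
Hmgcs1: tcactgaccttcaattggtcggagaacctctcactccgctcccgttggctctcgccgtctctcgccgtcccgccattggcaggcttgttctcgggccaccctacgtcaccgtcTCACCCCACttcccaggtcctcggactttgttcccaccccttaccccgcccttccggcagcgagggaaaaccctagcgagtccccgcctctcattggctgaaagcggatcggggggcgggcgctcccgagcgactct
Insig1: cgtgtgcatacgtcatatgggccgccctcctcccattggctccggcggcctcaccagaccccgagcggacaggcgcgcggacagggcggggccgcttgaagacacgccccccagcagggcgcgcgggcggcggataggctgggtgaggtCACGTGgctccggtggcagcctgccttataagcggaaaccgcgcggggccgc
The element of Hmgcs1 lies 137 to 129 bases before its start and the E-box of Insig1 101 to 96 bases before its start. That the other windows lack these letters says nothing of sites elsewhere.

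In the 3 livers of the mice without a lung library Sqle and Insig1 were also higher with PS. Sqle read 3.44 CPM in CS09 and 24.5 and 23.2 in PS05 and PS11, and Insig1 read 52.6 against 124 and 185. All 20 genes of the class that rose in the liver and fell in the lung were higher in PS05 and PS11 on average than in CS09, with a median log2 difference of 1.196, against 50.1% of all genes. Of the 16 genes of the reverse class 12 were lower. For the genes that moved the same way in both tissues these livers gave no such split, as 51.4% of the 72 rising genes were higher and 57% of the 93 falling genes lower. With the classes taken without CS02, 40.7% of the 607 rising genes and 68% of the 615 falling genes were higher in these livers. Of the 20 genes that then rose in the liver and fell in the lung 19 were higher. All these values rest on the same CS liver. Idi1 read 0.957 CPM in CS09 and 8.78 and 13.4 in the PS mice, higher with PS, unlike the 6 livers above.

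Leaving out a mouse moved sterol genes between classes. No enzyme moved the same way in both tissues with all mice, whereas 2 fell in both without CS02 and 1, Nsdhl, rose in both without PS15. The share of all genes that moved the same way was 1.34%, 9.64% and 2.07% in these settings. The enzymes that rose in the liver and fell in the lung numbered 3 of 20 with all mice, 5 without CS02, 4 without PS04, 2 without CS01, PS09 or PS15 and 1 without CS04. Over all genes that class held 20 of 12328 with all mice and 20 of 12680 without CS02. Of 12692 to 12832 genes it held 27 without PS04, 13 without CS01 or PS15, 12 without CS04 and 8 without PS09. Those that rose in the liver with a difference between tissues numbered 9 with all mice, 9 without CS04, 7 without CS01, CS02 or PS15, 6 without PS09 and 5 without PS04. Over all genes those that moved in the liver in either direction with such a difference numbered 284 with all mice. They numbered 620 without CS02 and from 145 without CS01 to 307 without CS04 when any other mouse was left out. The liver median over the 20 enzymes ranged from 0.72 without CS02 to 1.03 without CS04, and the lung median from -0.37 without PS04 to -0.26 without PS09. Without CS02 the edgeR adjusted p of the difference between tissues was 0.0487 for Insig1, Sqle and Hnmt and 0.0311 for Msmo1, and without CS04 it was 0.0374 for Msmo1.

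The other named genes of the class that rose in the liver and fell in the lung have varied roles. Kcnk5, a potassium leak channel, read 7.54, 13.6 and 25.6 CPM in the CS livers, 40.4, 52.4 and 42.3 in the PS livers, 11.8, 9.35 and 9.12 in the CS lungs and 5.68, 5.14 and 6.24 in the PS lungs. Its groups were apart in both tissues, with differences of 1.69 (SE 0.52) and -0.81 (SE 0.14). Hnmt, which inactivates histamine by methylation, read 12.5, 11.9 and 15.4 CPM in the CS livers and 23.7, 28.3 and 29.5 in the PS livers and 23.9, 17.4 and 23.8 in the CS lungs and 15.9, 11.2 and 11.1 in the PS lungs, also apart in both tissues, with differences of 1.03 (SE 0.15) and -0.77 (SE 0.23).

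Ppargc1a, a coactivator that raises mitochondrial and gluconeogenic genes, rose by 1.08 (SE 0.36) in liver and fell with a difference of -0.73 (SE 0.27) in lung. Slc16a12, a creatine carrier, differed by 0.81 (SE 0.17) and -0.76 (SE 0.24), and Ggh, a lysosomal folate hydrolase, by 0.67 (SE 0.21) and -0.73 (SE 0.302). The lung call of Ppargc1a was lost in 8 of 16 alternatives and the liver call of Ggh in 10. Tomm40l, at 0.79 and -0.78, shares 3304 of its exon bases with Nr1i3 on the other strand, so its counts cannot be separated from those of that nuclear receptor, and its liver call was lost in 4 and its lung call in 5 of 16 alternatives.

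None of the listed sterol genes was among the 16 that fell in the liver and rose in the lung. Adck5, a mitochondrial kinase-like protein, read 38.8, 49.7 and 35.1 CPM in the CS livers, 32.6, 29.2 and 20.3 in the PS livers, 10.4, 12.03 and 11.4 in the CS lungs and 18.2, 32.2 and 29.6 in the PS lungs. The lungs were well apart, and the livers were close but did not overlap, with differences of -0.602 (SE 0.25) and 1.19 (SE 0.26) (difference between tissues, edgeR adjusted p = 0.214). The liver call was lost in 7 of 16 alternatives, among them the removal of every mouse except PS04. Ndrg1, a gene induced by low oxygen and by stress, fell with a difference of -0.82 (SE 0.21) in liver and rose by 0.41 (SE 0.0997) in lung. Tmem86a, a lysoplasmalogenase, went from -0.86 to 0.39 between the tissues, and Pop1, a subunit of RNase P, from -0.72 to 0.76. The lung call of Tmem86a was lost in 9 of 16 alternatives and the liver call of Pop1 in 6. Atg2a, Nelfa, Tbrg4 and Gatad2a had liver differences from -0.49 for Tbrg4 to -0.57 for Atg2a and lung differences from 0.45 for Gatad2a to 0.53 for Atg2a. The liver call was lost in 10 of 16 alternatives for Nelfa, 8 for Tbrg4, 7 for Gatad2a and 4 for Atg2a, with no change of direction. The E-box, D-box and sterol element were in 1, 0 and 0 of the 12 windows of this class.

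Lpin1, Msmo1, Fam47e, Mid1ip1 and Pfkfb3 were the named genes that rose in the liver with a difference between tissues. Lpin1, a phosphatidate phosphatase of triglyceride synthesis and a coactivator, read 10.2, 64.3 and 43.98 CPM in the CS livers and 257, 224 and 416 in the PS livers, against 22.04 to 38.3 in the CS lungs and 30.7 to 39.3 in the PS lungs. It rose by 3.22 (SE 0.85) and stood at 0.26 (SE 0.26) in lung, and without CS02 it rose in both tissues. Mid1ip1, which promotes fatty acid synthesis, rose by 1.95 (SE 0.53), Pfkfb3, a regulator of glycolysis, by 2.02 (SE 0.34) and Fam47e by 1.796 (SE 0.38), with lung differences of -0.203, -0.06 and -0.68 that did not pass.

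Among the genes that fell in the liver alone, Cdkn1a, the p21 inhibitor of the cell cycle, read 32.2, 47.3 and 49.2 CPM in the CS livers and 10.6, 10.7 and 10.3 in the PS livers. The PS livers were tightly grouped and far below. The lungs read 181, 376 and 211 with CS and 357, 246 and 483 with PS and overlapped, and the differences were -1.99 (SE 0.19) and 0.52 (SE 0.43). In CS09, PS05 and PS11 it read 39.8 and 41.8 and 17.6 CPM, so PS05 did not lie low. Tor3a, an ATPase of the endoplasmic reticulum, fell with a difference of -2.28 (SE 0.54) and Agap2 with one of -1.51 (SE 0.33), with lung differences of 0.01 and 0.22.

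Some MHC class II genes, which present antigen to T cells, fell in the liver. Of the 7 tested MHC class II genes 3 fell in the liver, H2-Aa, H2-Ab1 and Cd74, and none moved in the lung, against 3.16% of all genes falling in the liver, with medians of -0.82 and 0.26, and 5 of the 7 differed between tissues, against 9.39% of all genes. The count rested on single mice, since none fell in the liver without CS01 or PS09 or with all 9 livers, 1 without PS15, 2 without CS02 or PS04 and all 8 then tested without CS04. Cd74, the invariant chain, read 131, 87.7 and 58.6 CPM in the CS livers and 48.9, 42.95 and 51.9 in the PS livers and 1602, 1241 and 1024 in the CS lungs and 1613, 1593 and 1202 in the PS lungs. In CS09, PS05 and PS11 it read 43.7 and 68.6 and 106, higher with PS. Il1b, a cytokine of macrophages, read 1.89 to 5.38 CPM in the CS livers and at most 0.849 in the PS livers, a fall that passed, and stood at a difference of -0.63 (SE 0.76) in lung. The 14 macrophage markers summed to 324 to 466 CPM in the CS livers and 113 to 388 in the PS livers and to 531.7 to 590 and 503 to 783 in the lungs, and the 10 endothelial markers to 119 to 165 and 70.4 to 145 in the livers. None of the 9 macrophage markers and 10 endothelial markers tested in both tissues was higher with PS in the liver, and none of them passed the test there, whereas Clec4f, a Kupffer cell gene tested in the liver only, fell. Of the 6 tested B cell and plasma cell markers 4 were higher and 2 lower with PS in the liver, with a median of 0.029. The 2 lower ones fell with a difference between tissues, Ighm with a difference of -1.82 (SE 1.52) and Ighd with one of -2.05 (SE 0.66). B cells carry MHC class II. Of the 9 tested mesenchymal markers Acta2 and Myh11 fell in the liver, and all 7 tested T and NK cell markers were lower there, with a median of -0.625 and none that passed. The part of these cells in the liver values was not tested.

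Chka, Sult5a1, Gpr182, Lgals4 and Gadd45b were the named genes that rose in the lung with a difference between tissues. Chka, the choline kinase of phosphatidylcholine synthesis, read 71.5, 75.8 and 78.2 CPM in the CS lungs and 143, 188 and 172 in the PS lungs, and 71.2, 193 and 67.4 in the CS livers and 65.6, 63.96 and 33.7 in the PS livers, where CS02 was highest. It rose by 1.15 (SE 0.12) in lung (edgeR adjusted p = 0.0133) and stood at -0.902 (SE 0.58) in liver. Sult5a1, a sulfotransferase, rose by 2.17 (SE 0.57), Lgals4, an epithelial galectin, by 2.08 (SE 0.57), Gadd45b, a stress gene, by 0.67 (SE 0.09) and Gpr182, an endothelial chemokine scavenger, by 0.604 (SE 0.1002).

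Idi1, Adcy9, Exph5, Naaladl2 and Syne3 were the named genes that fell in the lung with a difference between tissues. Adcy9, an adenylyl cyclase, read 12.03, 16.1 and 11.5 CPM in the CS lungs and 2.13, 2.62 and 2.32 in the PS lungs, a difference of -2.42 (SE 0.17), with an adjusted p that several genes shared as the smallest in the lung (edgeR adjusted p = 0.00764). Exph5, an effector of vesicle traffic, fell with a difference of -2.47 (SE 0.19), Syne3, a nuclear envelope protein, with one of -2.25 (SE 0.38) and Naaladl2 with one of -1.32 (SE 0.34). In the livers Adcy9 read 8.196, 2.86 and 17.9 CPM in CS01, CS02 and CS04 and 9.92, 6.95 and 9.93 in the PS mice and Exph5 5.61, 1.57 and 9.12 with CS and 4.495, 4.34 and 4.9004 with PS. For both the liver of CS02 was the lowest of the 6 and that of CS04 the highest, with the PS livers between them.

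The CS02 liver was also the lowest for some genes of insulin action and lipid synthesis. Irs1, an adaptor of the insulin receptor, read 5.71, 6.68 and 6.51 CPM in the CS lungs and 1.01, 0.726 and 1.66 in the PS lungs. In the livers it read 7.15, 2.25 and 14.2 in CS01, CS02 and CS04 and 3.33, 4.75 and 6.14 in the PS mice. Gpam, the first enzyme of glycerolipid synthesis, fell with a difference of -2.46 (SE 0.41) in lung and Acly, which makes the acetyl-CoA for fatty acids, with one of -1.07 (SE 0.11) (edgeR adjusted p = 0.0165 and 0.0165), and both had their lowest level among the livers in CS02. Of the 18 fatty acid synthesis genes 3 rose and none fell in the liver and 6 fell and 1 rose in the lung, with medians of 0.17 and -0.31 and 5 that differed between tissues. Over all genes 3.21% rose in the liver, 15% fell in the lung and 9.39% differed. The lung falls ranged from 4 without PS09, where 10.5% of all genes fell in the lung, to 10 without PS04, where 17% did. Without CS02 4 rose and 4 fell in the liver, where 14.3% and 12.9% of all genes did, among the latter Gpam, and Gpam and Fads2 then fell in both tissues.

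Over all genes that moved in the lung, the liver of CS02 deviated in the direction of the PS lungs. Each liver library was taken as the deviation of every gene from its mean over the 6 livers. For the 2085 genes that rose in the lung the median deviation was 0.56 in CS02, 0.31 in PS04 and 0.18 in PS09, and -0.18 in PS15, -0.35 in CS01 and -0.46 in CS04. For the 1855 genes that fell in the lung it was -0.53, -0.31 and -0.13 in CS02, PS04 and PS09 and 0.17, 0.39 and 0.47 in PS15, CS01 and CS04. Over all 12328 genes the medians lay between 0.003 and 0.021. The order did not follow the diets, and was nearly that of the mitochondrial share of counts in the livers, which was 14.4% in CS02, 13.3% in PS04 and 9.79% in PS09 and at most 6.50% in the others. In CS09, PS05 and PS11, where the share was 4.45 to 5.30%, the genes that rose in the lung lay at -0.17, -0.22 and -0.33. The part of the mitochondrial share, or of what moves with it, in the genes shared between tissues was not tested.

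**Figure D4:**
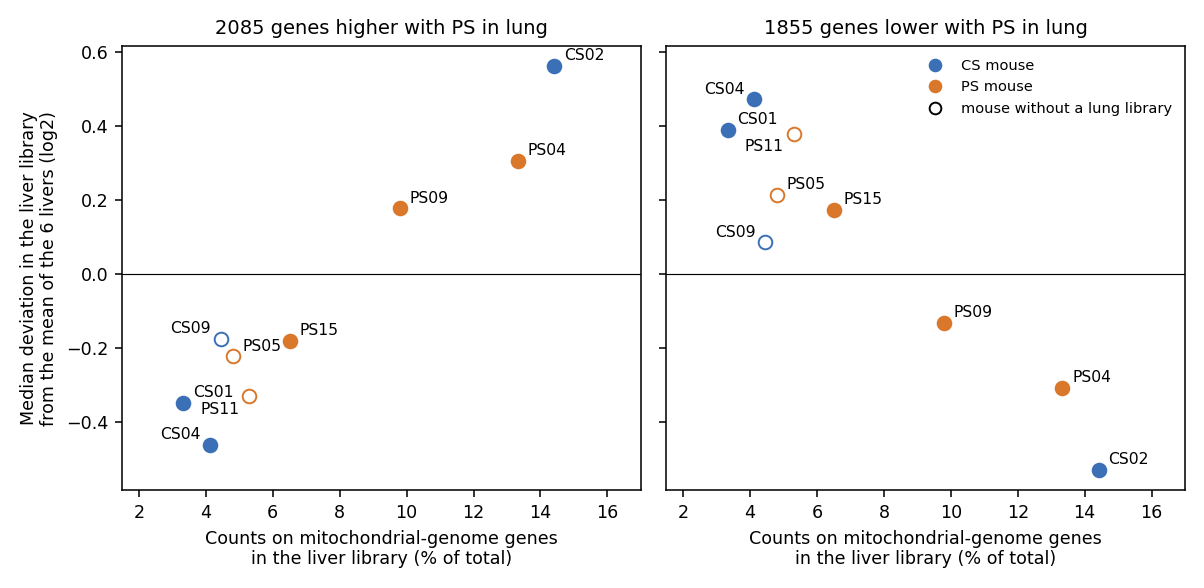
Each point is a liver library, with the share of its counts on genes of the mitochondrial genome on the x axis (%) and, on the y axis, the median log2 deviation from the mean of the 6 livers, for the 2085 genes that rose in the lung (left) and the 1855 that fell in the lung (right). CS mice are blue, PS mice orange and mice without a lung library open. CS02, PS04 and PS09 lie at 9.79% or above, positive on the left and negative on the right, and the other 6 livers lie below 7% with the reverse signs.

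The mitochondrial genes themselves were counted more with PS on average. All 13 protein-coding genes of the mitochondrial genome had a higher mean with PS in each tissue, with medians of 0.79 in liver and 0.89 in lung. In the lung 10 passed at an unadjusted p of at most 0.05 and in the liver 1, against 16.9% and 3.21% of all genes rising. Without CS02 12 rose in the liver and 4 in the lung, against 14.3% and 11% of all genes, and without any other mouse none rose in the liver. mt-Nd4, a subunit of complex I, read 2581, 16310.0 and 3167 CPM in CS01, CS02 and CS04 and 15074, 9711 and 5751 in the PS livers, and 2451, 2244 and 2749 in the CS lungs and 5182, 6615 and 3297 in the PS lungs. The lungs did not overlap and the CS02 liver was the highest of all. In the livers of CS09, PS05 and PS11 the median over the 13 genes was -0.07. mt-Nd4 shares 876 identical bases with the nuclear copy Gm28439, so counts may pass between them.

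The other lists showed few shared calls with all mice, and their counts are read against 3.21% of all genes rising and 3.16% falling in the liver, with 16.9% rising and 15% falling in the lung. Among the 15 glucocorticoid-responsive genes, which share Tsc22d3, Per1, Pdk4 and Cdkn1a with lists above, the medians were 0.46 in liver and 0.52 in lung. Of the 17 unfolded protein response genes 2 rose in the liver and 4 rose and 2 fell in the lung, with medians of 0.19 and 0.15 and no gene in a shared or opposite class. Of the 15 tested collagen and matrix genes 5 rose in the lung and 1 fell in the liver, with medians of 0.26 and -0.36. The lung count of these was 0 without CS01 or PS09, 1 without CS04, 3 without CS02 or PS15 and 6 without PS04. Of the 19 interferon-stimulated genes none moved in the liver and 3 rose and 2 fell in the lung, and of the 11 tested sterol efflux genes under the oxysterol receptor LXR none moved in the liver, while 1 rose and 1 fell in the lung. In the lists of adhesion molecules, inflammation, immediate early, heat shock, insulin signaling, xenobiotic metabolism and cell cycle genes at most 2 genes moved in the liver in either direction and at most 4 in the lung, and none stood in a shared or opposite class. Without CS02, when 14.3% of all genes rose and 12.9% fell in the liver, 2 unfolded protein response, 3 matrix, 2 sterol efflux and 5 insulin signaling genes fell and 4 xenobiotic metabolism genes rose there, and some of these genes stood in a shared class.

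**Figure D5:**
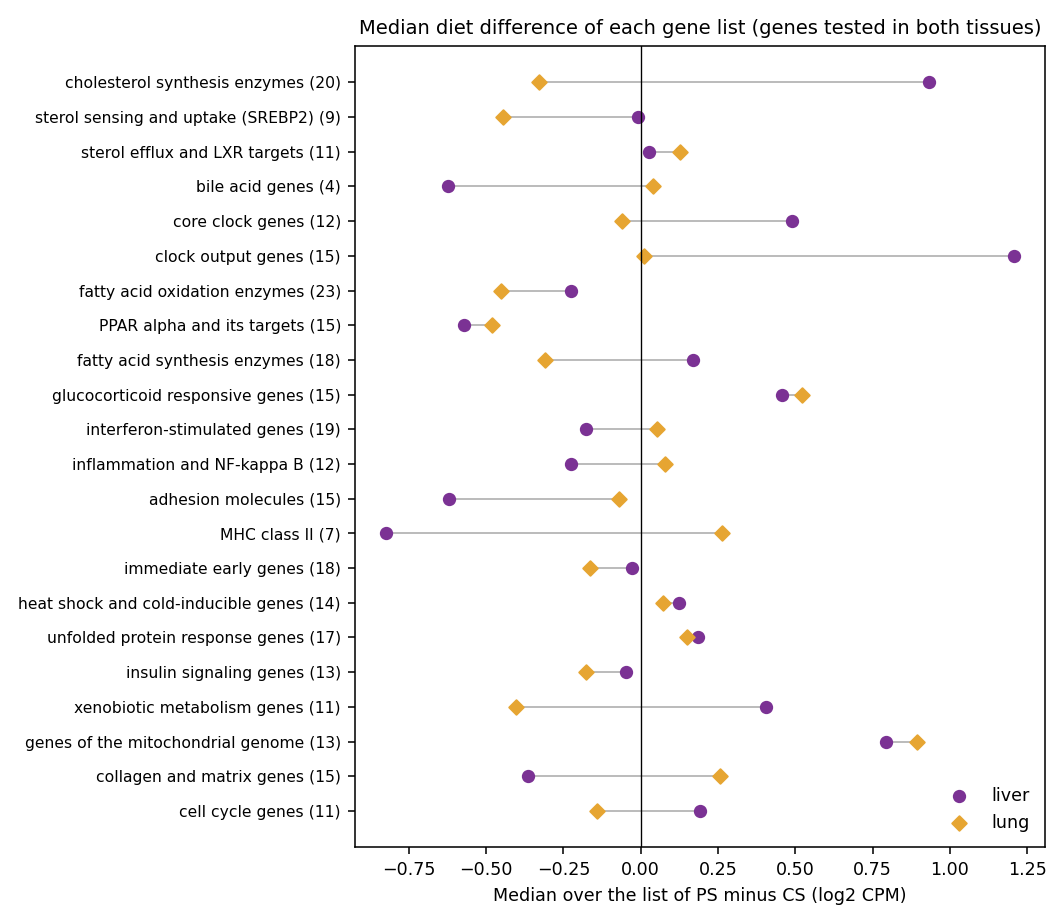
For each gene list (number of genes tested in both tissues in brackets) the circle is the median PS minus CS difference in liver and the diamond that in lung, in log2 CPM. The cholesterol synthesis enzymes lie on opposite sides of 0, at 0.93 and -0.33, and the genes of the mitochondrial genome lie together at 0.79 and 0.89.

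The classes taken in 1 tissue were looked up in the 3 set-aside livers as well. Of the 149 genes that rose in the livers with a difference between tissues 71.8% were higher in PS05 and PS11 on average than in CS09, and of the 135 that fell 65.9% were lower. Of the 339 genes that rose in the lung alone 64% were lower in these livers, and of the 219 that fell in the lung alone 76.3% were higher. In all 9 livers with the 6 lungs the same-way class counted 137 genes and the opposite class 83, with 1 liver gene and 6 differences between tissues past the adjustment in edgeR. When CS02 was left out of this set as well (an alternative added after seeing the data), the classes counted 463 and 48.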

How the data were processed

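Total RNA of frozen liver and lung was sequenced as poly-A selected libraries, made with a kit that does not mark strand. The values used are counts of reads per gene that the authors deposited as 1 table per tissue, made with HISAT2 2.0.5 and featureCounts 1.5.0-p3 on mm10 (names and versions from the submitters' processing notes, where DESeq2 1.20.0 also stands). The strand setting of the counting is not given in the sources used here. Deposited tables of FPKM were not used.

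Tables were joined by gene identifier. Genes were filtered in each tissue with filterByExpr, scaled by TMM and tested with edgeR 4.0.16 (robust quasi-likelihood, R 4.3.3), CS against PS, 3 mice each. The difference between tissues was the diet by tissue term of 1 fit over the 12 libraries without a mouse term, and the fit with mouse as a block was an alternative. The mean effect over both tissues used 1 value per mouse in limma 3.58.1. P-values were adjusted by Benjamini-Hochberg over all genes tested. CPM were on TMM-scaled library sizes, with a prior count of 2 on the log2 scale and no prior count for levels. Classes needed an unadjusted p of at most 0.05, and classes of 1 tissue also that p for the difference between tissues.

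Named genes, besides members of the gene lists, needed a mean log2 CPM of at least 1 in both tissues, no overlap between diets where the class moves, and a symbol that is no predicted gene, clone or pseudogene. For each shared or opposite class the 8 with the largest smaller of their 2 absolute differences were taken, and for each class of 1 tissue the 5 with the largest absolute difference between tissues. No gene met the further part of the rule, an adjusted p under 0.05 for the difference or the mean effect. Exon overlaps and copies of at least 95% identity over 200 bases were looked up on GRCm38. Promoters are RefSeq windows of 250 bases on GRCm38.p6, shortened to end before annotated exons.

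The gene lists and the comparison were chosen with earlier results of these data known. Alternatives were DESeq2 1.42.0 with its size factors and its Wald test, TMM over both tissues, other filters, GC removed, all 9 livers, blocks and each mouse left out. Removing the trend with gene length, and all 9 livers without CS02, were chosen after seeing the data. The steps were tested on simulated counts. Total counts set the precision, and with 3 mice a group the spread between mice limits it more than depth. Liver and lung of a mouse are paired by its name in the labels, and their deviations from the diet means correlated at -0.075 to 0.126 across genes. Those of different mice of a diet correlated at -0.295 to 0.26, so the pairing rests on the labels alone. Repeated libraries were looked for by chi-square over genes, and none were found (22.1 to 332 per degree of freedom). Single values of some listed and named genes are not reported here.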

Additional observations from a re-analysis of the deposited data

How the results depend on the processing

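Counts of genes moved with the settings. With all mice 165 genes moved the same way, 36 in opposite ways, 284 in the liver and 558 in the lung with a difference between tissues, and 0 genes in the liver, 1530 in the lung, 0 for the difference and 0 for the mean effect passed the adjustment. DESeq2's Wald test gave 269 genes moving the same way and 120 liver, 3058 lung and 134 difference genes past the adjustment. Without a filter 55 genes moved in opposite ways and 7 liver and 2313 lung genes passed. In all 9 livers 83 genes moved in opposite ways and 918 in the lung, and 1 liver and 6 difference genes passed. Without CS02 in that set, chosen after seeing the data, 463 moved the same way and 70, 27, 7 and 1837 genes passed for liver, lung, difference and mean. A p of at most 0.01 left 13, 5, 63 and 95 genes in the 4 classes, and no overlap in place of p gave 355 and 161.

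Leaving out each mouse gave 45 (PS09) to 1222 (CS02) genes moving the same way, 13 (PS09) to 45 (PS04) in opposite ways, 145 (CS01) to 620 (CS02) in the liver and 220 (PS09) to 885 (PS04) in the lung. Genes past the adjustment ranged from 0 to 690 (CS02) in the liver, from 0 (CS04) to 2942 (PS04) in the lung, from 0 to 19 (CS02) for the difference and from 0 to 1859 (CS02) for the mean. DESeq2 size factors, joint TMM, the stricter filter, GC and gene length each kept the 8 counts within 1.5 times.

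With mouse as a replicate block, paired by the labels, 235 genes moved in the liver and 398 in the lung with a difference between tissues, and 0 passed the adjustment. The replicate number in the labels as a replicate block gave 2116 genes moving the same way, 71 in opposite ways, and 3723 liver and 1622 lung genes past the adjustment. In the liver only CS01 with PS04 and CS04 with PS09 share a number. CS02 and PS15 have no partner there and do not enter the liver diet difference of this block. Same-numbered mice correlated at -0.31 and -0.111 in liver and -0.025 to 0.11 in lung, so they share only a number. Over these settings 1818 repeats of named gene calls kept their side of the threshold, 208 lost it and 0 reversed. Only calls past the threshold with all mice were followed, so their persistence is in part built in. Of the list medians 682 repeats stayed within their spread and 22 did not. Low counts limit genes near 1 CPM, such as Fdps.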
